A study of Homo sapiens with 21 samples.

Results

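PARP1, PARP2, PARG, BRCA1, BRCA2, PALB2, TP53BP1, MAD2L2 and RIF1 were followed by RNA sequencing through 17 human carcinoma cell lines. These 9 genes were taken by their symbols from the 53515 genes counted in each library, and all 9 had counts in every library. They bear on resistance to olaparib, an inhibitor of PARP that was used to derive the lines U10 and U100 from the ovarian carcinoma line UWB1.289.

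The study compared 7 parental cell lines with 10 lines derived from them by months of growth in rising doses of a cancer drug, in 21 libraries of messenger RNA. Beside U10 and U100, HepG2S1 and HepG2S3 were derived from the liver line HepG2 under sorafenib, and PancB1Q and PancB1V from the pancreatic line PancVB under 5-fluorouracil. Among lung adenocarcinoma lines, HCC4006ER came from HCC4006P1 under erlotinib, HCC4006GR from HCC4006P2 under gefitinib and HCC827GR from HCC827P under gefitinib. The ovarian line IGROV-1/CDDP came from IGROV-1 under cisplatin. HCC4006P1 and HCC4006P2 are named as stocks of the same line. Each name is a cell line and not a tissue, so that a change may belong to that derived line as much as to its drug. There were 2 libraries for each of HepG2, HCC4006P1 and their derivatives HepG2S3 and HCC4006ER. The remaining 13 lines, UWB1.289, U10 and U100 among them, had 1. The changes in U10 and U100 therefore have no replicate check and no p-value.

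Poly(ADP-ribose) polymerases mark DNA breaks with chains of ADP-ribose, and inhibitors that trap them on DNA leave lesions that a dividing cell repairs by homologous recombination. BRCA1, PALB2 and BRCA2 act in that order in recombination at resected DNA ends, and cells without BRCA1 or BRCA2 are hypersensitive to PARP inhibitors. 53BP1, RIF1 and the shieldin complex, of which MAD2L2 (REV7) is a part, hold back resection, and their loss restores recombination in cells without BRCA1. UWB1.289 is known as a line that lacks functional BRCA1 protein.

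BRCA1, BRCA2 and PALB2 start head to head with a neighbour, which places both starts in 1 short stretch of DNA. PARP2 also has a gene start on the opposite strand, 50 bases from its own, but that gene was not among those counted. On GRCh37, the build the counts were made on, 186 bases lie between the starts of BRCA1 and NBR2, 144 between those of BRCA2 and ZAR1L, and 155 between those of PALB2 and DCTN5. The bases of these stretches that belong to no annotated exon are shown because the neighbours serve below as a comparison for their partners. They are written 5′ to 3′ on the strand of the repair gene. Capitals mark CCAAT or CCGGAAG on either strand.
BRCA1, chr17:41277501-41277567, minus strand: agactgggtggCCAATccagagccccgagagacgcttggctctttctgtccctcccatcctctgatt
BRCA2, chr13:32889501-32889641, plus strand: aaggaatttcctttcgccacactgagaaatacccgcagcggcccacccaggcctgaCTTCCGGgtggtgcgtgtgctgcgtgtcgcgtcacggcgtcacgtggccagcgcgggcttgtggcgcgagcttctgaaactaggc
PALB2, chr16:23652643-23652786, minus strand: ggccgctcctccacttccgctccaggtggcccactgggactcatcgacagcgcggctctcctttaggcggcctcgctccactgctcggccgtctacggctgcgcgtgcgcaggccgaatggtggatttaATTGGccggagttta
In RefSeq promoter windows of GRCh38.p14, which run from 250 bases before to 50 after a start, CCAAT or its reverse complement lay in 6 of 9 of these genes and in 34.6% of 35116 windows. CCGGAAG lay in 4 of 9, namely PARG, BRCA2, PALB2 and TP53BP1, and in 10.3% of all windows. The E2F-type words TTTCCCGC, TTTCGCGC, TTTGCCGC and TTTGGCGC were in none of the 9 windows and in 3.31% of all. A match describes letters only.

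Read depth on the 36406 genes used for scaling ran from 7733142 to 29888818 counts, with 8856438 in UWB1.289, 7886549 in U10 and 10028349 in U100. Replicate 1 of HCC4006P1 held no counts for a contiguous run of genes at the end of its file. Those genes were left out of the total of every library, and none of the 9 genes lies among them. Levels are CPM, the usual scaling of counts by that total, and a change is the difference in log2(CPM + 0.1), on which scale 1 is a doubling. Of 8 ovarian tumour markers 5 reached 1 CPM in UWB1.289, U10 and U100, and the list summed to 812, 774 and 958 CPM. PAX8 was highest at 469, 502 and 591 CPM. The sum was not particular to ovarian lines, since the lung line HCC827P had 913 CPM, with MUC16 at 841 CPM. WT1, CLDN6 and EMX2 lay under 1 CPM in UWB1.289, U10 and U100, and MUC16 was at 135, 39.2 and 125 CPM. By contrast, 8 hepatocyte markers summed to 47822 CPM in HepG2, 1.81 in HepG2S1 and 42.2 in HepG2S3, so that markers of the labelled tissue were nearly absent from both sorafenib lines. In such bulk samples, fewer cells of a type and less RNA per cell cannot be told apart. Of the 8 lung and pancreas markers, HCC4006P1 reached 1 CPM only for KRT19 and MUC1, and their sum went from 2300 CPM there to 32.7 CPM in HCC4006ER. In the other lung lines it lay between 341 and 1921 CPM. NKX2-1, a regulator of lung identity, was at 140 CPM in HCC4006P2 but at 0.0823 CPM in HCC4006P1, although both are named as stocks of HCC4006.

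The labels name a kit that covers whole transcripts for every library, whereas the study's methods also name a kit that reads transcript ends, for which division by length would not hold. Across the 17 lines PARP1 had the highest median of the 9 genes, at 492 CPM, with RIF1 at 273 CPM. In HCC4006GR, HCC827P and HCC827GR, RIF1 was above PARP1. Divided by transcript length, the median level of PARP1 was 124 CPM per kb, against 40.5 for PARP2, 30.4 for MAD2L2 and 18.6 for RIF1. BRCA1 had a median of 14.5 CPM per kb, PARG 13.0, TP53BP1 12.1, PALB2 9.52 and BRCA2 5.84. BRCA2 differed most between lines, with an 18.4-fold gap between U10 and HepG2, followed by BRCA1 with a 10.0-fold gap between PancB1Q and HepG2. Both gaps rest on HepG2 libraries that stood apart. Without replicate 1 of HepG2 they were 45.7-fold and 23.6-fold, and without replicate 2 they were 11.6-fold and 6.88-fold, the last against HCC4006ER. The other 7 genes spanned between 3.24-fold and 5.47-fold.

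**Figure D1:**
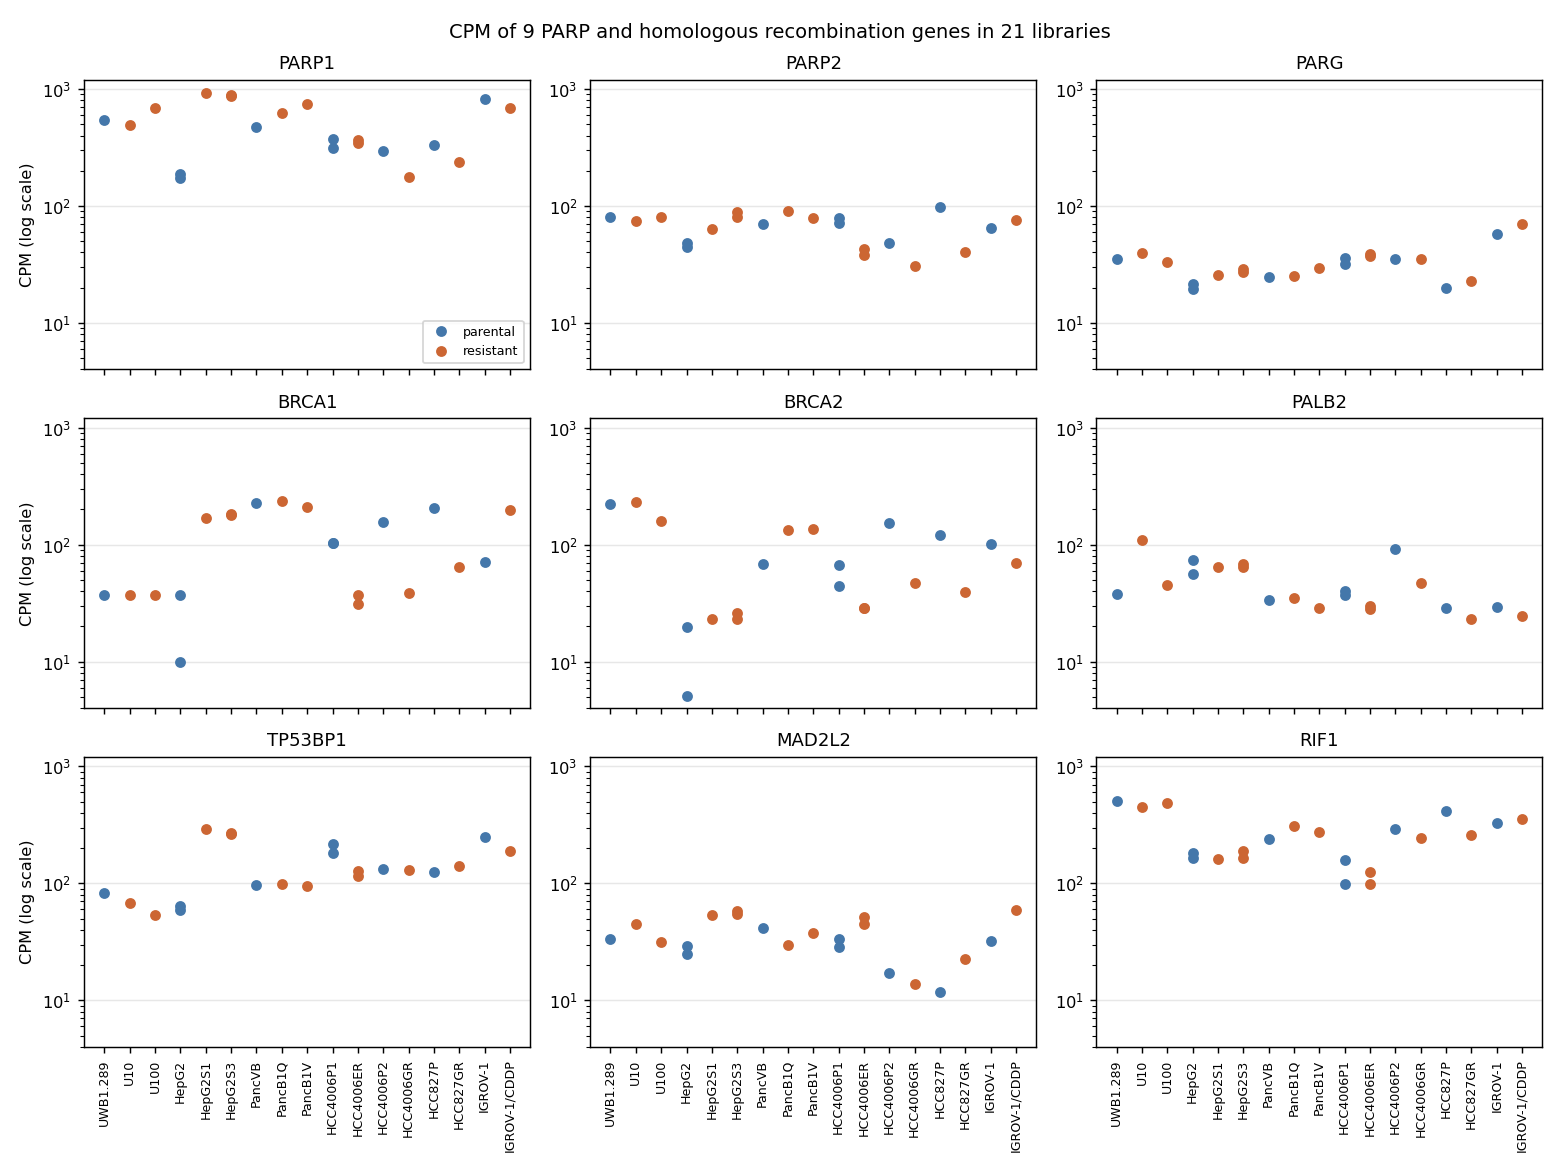
CPM on a log scale (vertical) of each gene in 21 libraries grouped by cell line (horizontal), parental lines in blue and resistant lines in orange; a line with 2 points has 2 libraries. BRCA1 was alike in UWB1.289, U10 and U100 near 37 CPM, while the same 3 lines held the highest BRCA2 and RIF1 levels.

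UWB1.289 and its derivatives formed a recognisable profile among these lines. RIF1, which binds 53BP1 at broken ends, reached its 3 highest levels there, with 504 CPM in UWB1.289, 486 in U100 and 446 in U10. The next line in order, HCC827P, had 416 CPM. Likewise, BRCA2 stood highest in U10 at 230 CPM, UWB1.289 at 223 and U100 at 159, the last next to HCC4006P2 at 153. In contrast, BRCA1 transcript ranked 13, 14 and 15 from the top, and TP53BP1 ranked 14, 15 and 17. The BRCA1 levels of the 3 lines and of HCC4006GR at 38.9 CPM had overlapping counting intervals, as had the BRCA2 levels of U100 and HCC4006P2.

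The question in front was whether U10 and U100 differed from UWB1.289 in the target of olaparib or in the repair genes that decide the response to it. Transcripts of the drug target were close to the parental level in both. PARP1, which accounts for most ADP-ribose made after damage, had 546 CPM in UWB1.289, 492 in U10 and 689 in U100. U10 was lower by a log2 of 0.15 and U100 higher by 0.34, with a 95% counting interval from 0.28 to 0.39. PARP1 differed by up to 0.27 between libraries of 1 line, so that U10 lay inside and U100 slightly outside that spread. PARP2, the second enzyme that olaparib binds, was at 80.1, 73.9 and 80.9 CPM in the same order, which differed by no more than its replicate libraries. PARG, the hydrolase that removes ADP-ribose chains and opposes PARP, was at 35.1, 39.9 and 33.0 CPM. Its U10 level was higher by 0.19, with a counting interval from -0.04 to 0.41 that covered 0. PARGP1, a pseudogene copy of PARG, was counted at 3.50, 4.56 and 4.09 CPM, and reads that map to both copies equally were not counted to either.

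BRCA1 transcript did not differ at this depth. It measured 37.4 CPM in UWB1.289 from 331 reads, 37.3 in U10 from 294 and 37.0 in U100 from 371. The interval of the difference ran from -0.23 to 0.22 in U10 and from -0.23 to 0.20 in U100, so that a change of 1 in either direction lies outside it as far as counting error goes. NBR2, whose start faces that of BRCA1 across the stretch shown above, was lower by 0.48 in U10 and higher by 0.54 in U100, at levels of only 5.71 to 11.7 CPM. BRCA2 was at 223 CPM in UWB1.289, 230 in U10 and 159 in U100. U100 thus lay 0.49 below its parent, with an interval from -0.59 to -0.40, and U10 did not stand apart. The gap in U100 was smaller than the 1.96 that separated the HepG2 libraries for BRCA2. In the other replicated lines, BRCA2 differed between libraries by 0.60 in HCC4006P1, 0.18 in HepG2S3 and 0.01 in HCC4006ER. ZAR1L, the partner of BRCA2, was under 0.4 CPM in all 3 lines.

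PALB2 was the exception. Its level was 38.2 CPM in UWB1.289 (338 reads), 110 in U10 (869 reads) and 45.5 in U100 (456 reads). Of these lines U10 alone was high. It also exceeded every other line of the series, with HCC4006P2 next at 91.4 CPM and HepG2S3 after it at 66.3 CPM. The difference was 1.53 in U10, or 2.89-fold, with a counting interval from 1.35 to 1.71, and 0.25 in U100, with an interval from 0.05 to 0.45. No replicated line showed a PALB2 difference above 0.40 between its libraries. DCTN5, a dynactin subunit that starts 156 bases away in the opposite direction, went from 66.8 CPM to 186 in U10 and 76.6 in U100, that is 1.47 and 0.20. In the other pairs the partners often parted. DCTN5 was 0.84 lower in HepG2S1, where PALB2 differed by -0.02.

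**Figure D2:**
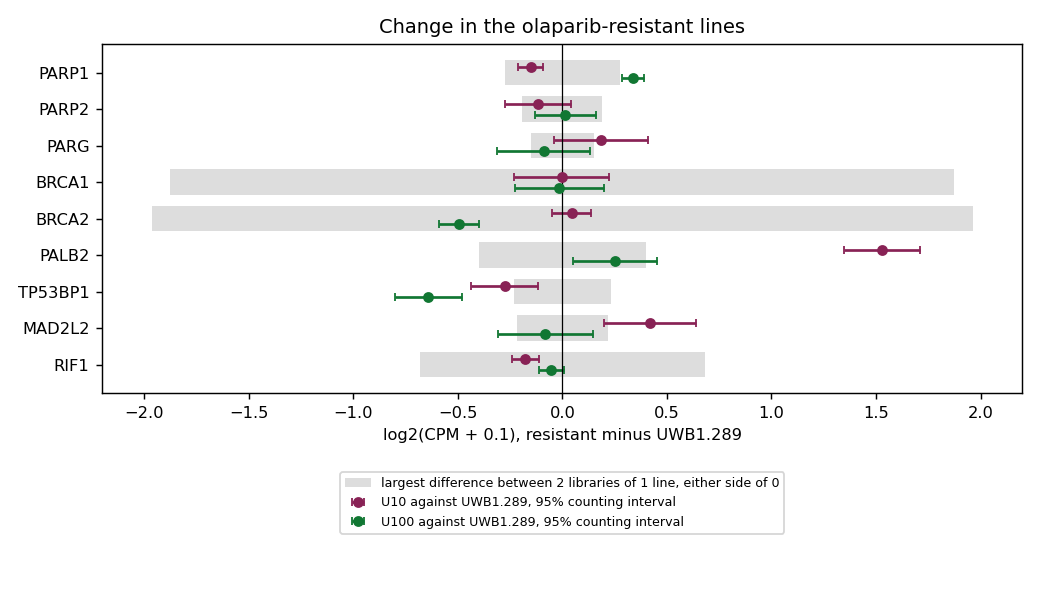
Difference in log2(CPM + 0.1) of U10 (purple) and U100 (green) from UWB1.289 (horizontal) for 9 genes (vertical); points have 95% counting intervals, and grey bars give the largest difference between 2 libraries of 1 line. PALB2 in U10 at 1.53 lies far outside its bar, while BRCA1 sits at 0 in both lines.

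Among the genes that restrain resection, TP53BP1, which encodes 53BP1, was at 82.9 CPM in UWB1.289, 68.5 in U10 and 53.1 in U100. Both resistant lines were lower, U10 by 0.28 and U100 by 0.64, with a counting interval from -0.80 to -0.48 for the latter. Libraries of 1 line differed by at most 0.23. U100 had the lowest TP53BP1 level of the 17 lines. RIF1 was lower by 0.18 in U10 and by 0.05 in U100, both smaller than its largest replicate difference of 0.68. MAD2L2 stood at 33.6, 45.0 and 31.8 CPM, which is 0.42 higher in U10 and 0.08 lower in U100, against a replicate difference of up to 0.22.

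In all, 1 of 9 genes differed by more than 1 in U10, where 15.5% of 11930 expressed genes did, and 0 of 9 in U100, where 12.4% of 12207 did. The medians of the 9 genes were 0.00 and -0.05, beside -0.02 and 0.07 over all expressed genes. Expressed here means a mean of at least 1 CPM in the pair. Scaling by TMM instead of the total turned the direction of BRCA1 in U10 and of PARP2 in U100, both within 0.1 of 0. It put TP53BP1 in U10 at -0.228 and PARP1 in U100 at 0.268. Both then lay just inside their largest replicate differences by CPM, 0.233 and 0.274. Between the olaparib lines themselves, PALB2 was 1.28 lower in U100 than in U10, with an interval from -1.44 to -1.11. This was the only one of the 9 genes past 1 in that comparison, in which 11.3% of 12114 genes were. BRCA2 was 0.54 lower, MAD2L2 0.50 lower and PARP1 0.49 higher in U100.

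Most of the recombination pathway was close to the parental level in both lines. Of 30 other recombination genes, 0 differed by more than 1 in U10 and 1 in U100, with medians of 0.05 and -0.11. Among 17 measured genes of the 53BP1 axis and end joining, 1 was lower by more than 1 in U10 and 2 in U100, beside 7.4% and 2.91% of all expressed genes. STN1, a subunit of the CST complex that fills in resected ends, was at 27.8 CPM in UWB1.289, 8.75 in U10 and 10.8 in U100, or 1.66 and 1.36 lower. SHLD2, the DNA-binding subunit of shieldin, was at 30.7 CPM in UWB1.289, 26.4 in U10 and 11.97 in U100. Only U100 was clearly low for SHLD2, with a change of -1.35. POLQ, the polymerase of theta-mediated end joining, was 0.75 and 0.39 higher.

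In the list of ADP-ribosylation and single-strand break repair, 2 of 21 genes were more than 1 higher in U10 and 1 in U100, beside 8.12% and 9.49% of all expressed genes. PARP14, a mono-ADP-ribosyltransferase, had 75.0 CPM in UWB1.289, 159 in U10 and 224 in U100. PARP12 was 0.76 and 0.77 higher, and PARP10 0.63 and 0.81 higher. From the list on replication forks and drug response, SMARCAL1, a fork remodeller, was 1.21 and 0.29 lower, ZRANB3 0.50 and 0.66 lower, and DYNC1H1 0.56 and 0.46 lower. Of 18 cell cycle genes, 9 were higher in both lines and 8 lower in both, and 2 were lower by more than 1 in each line, beside the 7.4% and 2.91% given above. MKI67 was 1.19 lower in U10 and 1.47 in U100, CCNB1 was 1.37 and 1.17 lower, and AURKA was 0.98 and 1.00 lower. On the other side, MCM6, a subunit of the replicative helicase, was 0.70 and 0.69 higher, and the medians of the list were 0.32 and -0.01. None of these values has a replicate check.

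The high PALB2 level in U10 did not stand alone on its chromosome. Of the 10 other expressed genes centred within 1 Mb of PALB2 on chromosome 16, 6 were more than 1 higher in U10, beside 8.12% of all expressed genes, and their median was 1.09. At 1 to 2 Mb it was 10 of 14 genes with a median of 1.16, and at 2 to 3 Mb 0 of 9 with a median of 0.14. Further out, at 3 to 5 Mb, 8 of 27 genes were again more than 1 higher, with a median of 0.56. Beyond 5 Mb, 5.85% of 547 genes on the chromosome were. The 6 genes, named after their values were seen, were USP31 at 2.26, GGA2 at 1.60, DCTN5 at 1.47, COG7 at 1.40, UBFD1 at 1.15 and NDUFAB1 at 1.03. Exceptions lay among them, since PLK1 differed by -0.11 and HS3ST2 was lower by 2.14. In U100 none of the 10 genes within 1 Mb was up past 1, beside 9.49% of all expressed genes, and their median was -0.10.

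TP53BP1 in U100 had company as well. The 27 expressed genes within 1 Mb of TP53BP1 on chromosome 15 had a median of -0.60, close to the -0.64 of TP53BP1, and 4 of 27 were down past 1, where 2.91% of all expressed genes were. In U10 their median was -0.09. Genes at 2 to 3 Mb had a median of 0.25 in U100, whereas those beyond 5 Mb had -0.42. The window of 1 Mb was chosen after the PALB2 neighbours had been seen, and the cause of these shared differences was not tested. From low coverage genome sequencing of the pairs, the study reported small differences between parental and resistant lines, except in the HepG2 pairs. Those sequences were not used here.

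**Figure D3:**
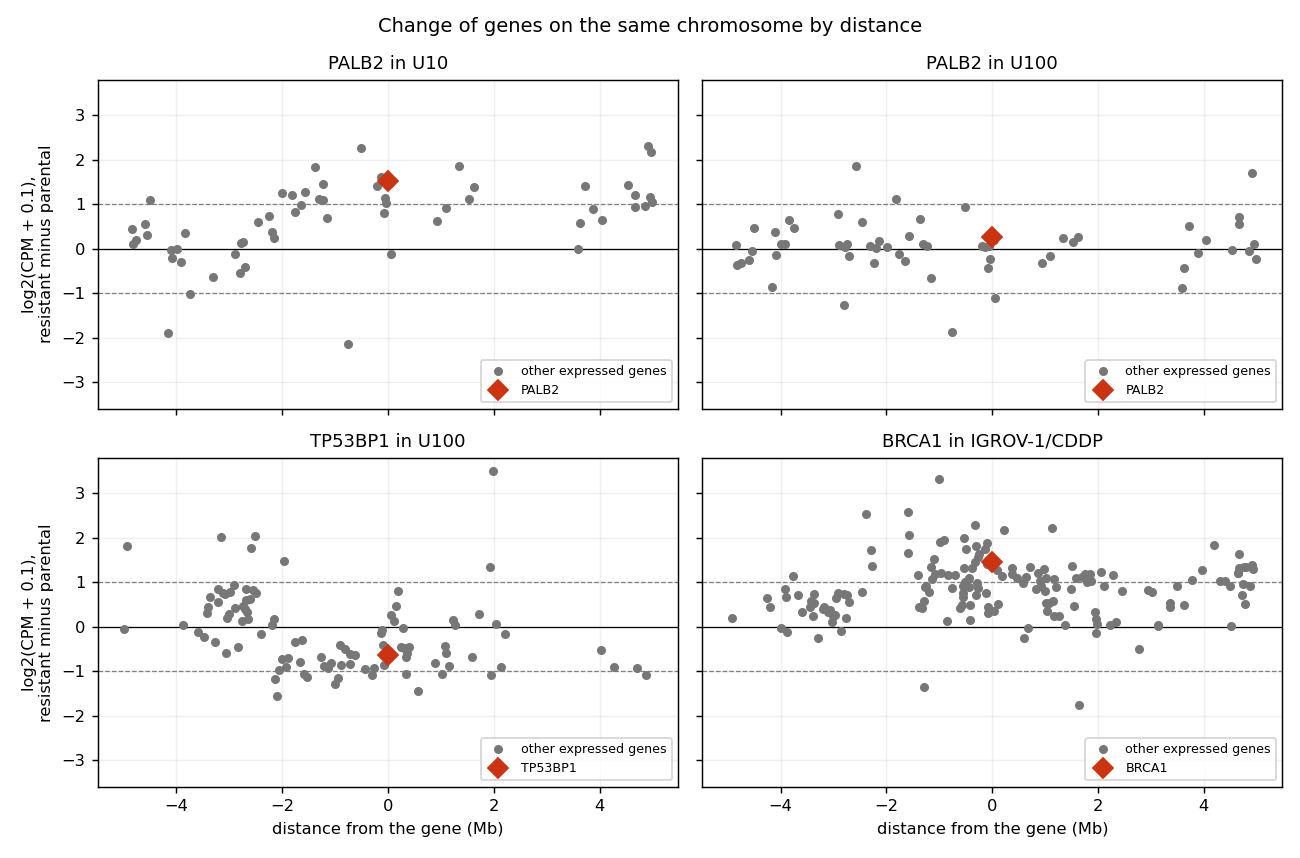
Change in log2(CPM + 0.1) (vertical) of expressed genes by their distance in Mb (horizontal) from PALB2, TP53BP1 or BRCA1 (red diamonds), with dashed lines at 1 and -1. Genes around PALB2 were raised with it in U10 (median 1.09 within 1 Mb) but not in U100 (-0.10), and genes around BRCA1 in IGROV-1/CDDP had a median of 1.10.

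Over the 10 pairs the 9 genes followed no common course. BRCA1 moved over the widest range, from -1.99 to 2.95, with 3 pairs up past 1 and 3 down. PARG moved over the narrowest, from -0.09 to 0.45, and was above its parent in 9 of 10 pairs, which share 7 parents. Its change in HCC4006GR was only 0.01, and TMM scaling turned that in HepG2S1 to -0.10. RIF1 passed 1 in no pair. When 7 resistant and 7 parental profiles were compared with the parental line as a block, the quasi-likelihood test of edgeR called 0 of 9 genes and 0% of 15501 genes at an adjusted p under 0.05. At an unadjusted p under 0.05 it called 4.69% of genes, and DESeq2 called 83 genes after adjustment. MAD2L2 had the lowest unadjusted p of the 9 genes, 0.0968 by edgeR, with a mean log2 difference of 0.41 (SE 0.22). Its adjusted p of 0.991 by edgeR with Benjamini-Hochberg adjustment was shared by most of the 9 genes.

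**Figure D4:**
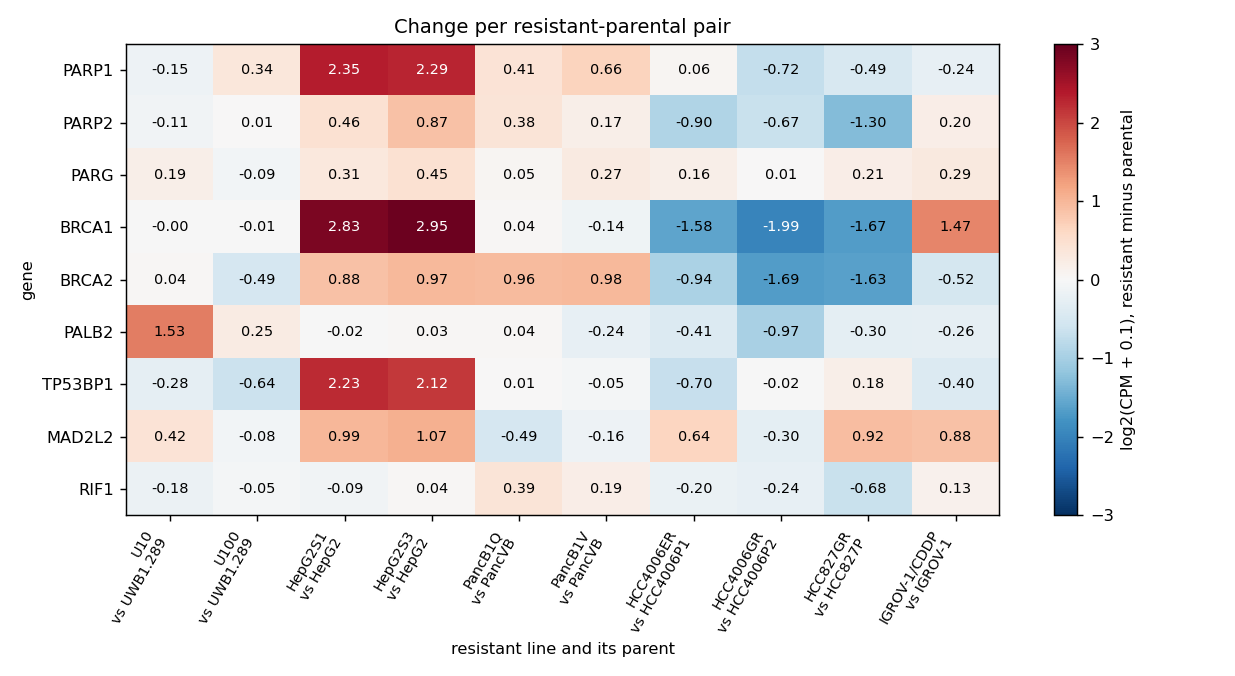
Change in log2(CPM + 0.1), resistant minus parental, of 9 genes (rows) in 10 pairs (columns), in red where higher and blue where lower. BRCA1 spans from 2.95 in HepG2S3 to -1.99 in HCC4006GR, and PALB2 passes 1 only in U10.

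In the sorafenib line HepG2S3 PARP1, PARP2, BRCA1, TP53BP1 and MAD2L2 rose over HepG2. BRCA1 was at 37.0 and 10.0 CPM in the HepG2 libraries and at 184 and 180 CPM in those of HepG2S3. The groups did not overlap, although the HepG2 libraries stood far apart, and the rise was 2.65 (SE 0.61; adjusted p = 0.0135 by edgeR's quasi-likelihood test with Benjamini-Hochberg adjustment). PARP1 was at 186 and 173 CPM against 868 and 894 CPM, a rise of 1.99 (SE 0.13; adjusted p = 0.000221 in the same edgeR test). Without HepG2 replicate 1 the rise of BRCA1 was 3.90, and without replicate 2 it was 1.99. TP53BP1 was at 64.3 and 59.3 CPM against 267 and 270 CPM, a rise of 1.82 (SE 0.12; adjusted p = 0.000254 in the edgeR test).

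MAD2L2 rose by 0.77 and PARP2 by 0.57, with adjusted p-values of 0.00802 and 0.0139 by edgeR. Together 5 of 9 genes were called, all upward, where edgeR called 31.7% of 13335 genes upward and 64.6% in either direction. Without either HepG2S3 library 3 of 9 were called, since PARP2 and MAD2L2 were lost. BRCA2 was not called, at 19.9 and 5.04 CPM in HepG2 against 23.1 and 26.2 CPM in HepG2S3 (0.68; adjusted p = 0.374 by edgeR). Without HepG2 replicate 1 its change was 2.00 and was called, and without replicate 2 it was -0.01. PARG, PALB2 and RIF1 had values of 0.15, -0.27 and -0.26 in the same test and were not called. Without HepG2 replicate 2, PALB2 at -0.47 and RIF1 at -0.34 were called as well (adjusted p = 2.38e-05 and 0.00173 by edgeR), while PALB2 was at -0.04 without replicate 1.

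HepG2S1, with 1 library, lay near HepG2S3. BRCA1 had 168 CPM, PARP1 920 and TP53BP1 291, which is 2.83, 2.35 and 2.23 above HepG2, and for BRCA1 4.05 without HepG2 replicate 1. These were the 3 of 9 genes past 1, beside 48.4% of 11605 expressed genes in that pair, and the count was 5 without HepG2 replicate 1. For HepG2S3 the count by CPM was 4, beside 48.1%. Sorafenib lines share the HepG2 libraries, so that their values are not independent. TMM scaling lowered all genes by 0.41 in HepG2S1 and by 0.29 in HepG2S3, and it turned the direction of PARG in HepG2S1 and of PALB2 and RIF1 in HepG2S3.

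Markers and proliferation moved with these values. Beside the loss of hepatocyte markers given above, fibroblast, leukocyte and endothelial markers summed to 63.1 CPM in HepG2, 827 in HepG2S1 and 656 in HepG2S3, with DCN highest in both resistant lines. CD68 gave 52.5 CPM of the sum in HepG2. Of 4 such markers measured in each pair, 3 were higher and 1 was lower. Of 18 cell cycle genes, 16 were up past 1 in each sorafenib line, with medians of 2.16 and 2.33, and edgeR called 10 of 18 up in HepG2S3. The same genes separated the HepG2 libraries. All 18 were higher in replicate 1, where they summed to 2101 CPM, than in replicate 2, where they summed to 667 CPM, and this is the direction in which BRCA1 and BRCA2 differed between the libraries. Of 30 other recombination genes 25 were up past 1 in each line, and of 26 tested by edgeR in HepG2S3 18 were called up and 0 down. RPA3, a subunit of the single-strand binding protein, rose by 2.60. The nuclease EXO1 rose from 14.0 and 1.88 CPM to 81.3 and 75.7 CPM. SHLD1 and SHLD3, by contrast, fell by 2.12 and 1.33. Genes within 1 Mb of TP53BP1 had medians of 1.17 in HepG2S1 and 0.95 in HepG2S3, and 14 of 25 and 12 of 25 of them were up past 1, beside 28.8% and 29.1% of all expressed genes. The part of proliferation, marker loss and neighbouring genes in the changes was not tested.

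In the erlotinib line HCC4006ER BRCA1, BRCA2, PARP2, TP53BP1 and PALB2 fell and MAD2L2 rose, so that BRCA1, PARP2 and TP53BP1 moved against their direction in HepG2S3 and MAD2L2 moved with it. BRCA1 fell from 103 and 102 CPM in HCC4006P1 to 31.2 and 37.4 CPM, with no overlap, by 1.66 (SE 0.14; adjusted p = 0.000225 by edgeR's quasi-likelihood test with Benjamini-Hochberg adjustment). BRCA2 was at 66.7 and 43.9 CPM in the parental libraries and at 28.8 and 28.6 CPM in the resistant ones. It fell by 1.02 (SE 0.20; adjusted p = 0.00586 by edgeR). PARP2 fell from 71.5 and 79.3 CPM to 37.7 and 43.0 CPM, by 0.98 (SE 0.15; adjusted p = 0.00213 by edgeR).

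TP53BP1 fell by 0.78 and PALB2 by 0.49, with adjusted p-values of 0.00275 and 0.0285 by edgeR, and MAD2L2 rose by 0.56 (adjusted p = 0.0293 by edgeR). Thus 6 of 9 genes were called, 5 down and 1 up, where edgeR called 24.9% of 12791 genes down, 24.1% up and 49% in all. PARP1, PARG and RIF1 had values of -0.03, 0.09 and -0.28 and were not called. RIF1 was called at -0.56 without HCC4006P1 replicate 2 (adjusted p = 2.51e-06 by edgeR) and stood at 0.05 without replicate 1. When the genes without counts in 1 parental library were included, 3 of 9 were called, with BRCA2, PALB2 and MAD2L2 lost. PALB2 and MAD2L2 were also lost without either HCC4006ER library. By CPM, only BRCA1 was past 1 in this pair, beside 26.4% of 11812 genes, and BRCA2 and PARP2 lay at -0.94 and -0.90.

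A direct test of the difference between the replicated pairs placed HepG2S3 above HCC4006ER for 4 of 9 genes, in a test where 55.9% of 14479 genes were called and 28.2% in this direction. BRCA1 differed by 4.32, TP53BP1 by 2.61, PARP1 by 2.03 and PARP2 by 1.57, with adjusted p-values of 0.000573, 5.28e-06, 6.44e-05 and 0.000287 by the edgeR interaction term. For BRCA2 the difference was 1.71 (adjusted p = 0.0614 by edgeR), and DESeq2 placed it past the threshold (adjusted p = 0.0243).

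Both gefitinib lines had low BRCA1 and BRCA2, with 1 library per line. BRCA1 was at 155 CPM in HCC4006P2 and 38.9 in HCC4006GR, and at 206 CPM in HCC827P and 65.0 in HCC827GR, with changes of -1.99 and -1.67. BRCA2 went from 153 to 47.4 CPM and from 121 to 39.1 CPM, with changes of -1.69 and -1.63. These were the 2 genes past 1 in HCC4006GR, beside 19.6% of 12253 genes. In HCC827GR PARP2 was also past 1, at 98.7 CPM in the parent and 40.0 in the resistant line, beside 22.7% of 11576 genes. PALB2 was 0.97 lower in HCC4006GR and 0.30 lower in HCC827GR, and MAD2L2 was 0.30 lower in the former and 0.92 higher in the latter.

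Other recombination genes were low in the lung lines as well. Of 30, 16 were down past 1 in HCC4006GR and 12 in HCC827GR, beside 10.2% and 9.64% of all expressed genes, and edgeR called 15 of 26 down and 1 up in HCC4006ER. FANCI, which acts with FANCD2 in crosslink repair, fell by 2.04 and the helicase BLM by 1.79 in HCC4006ER. Cell cycle genes had medians of -0.70, -1.85 and -1.33 in HCC4006ER, HCC4006GR and HCC827GR, and edgeR called 11 of 18 down and 0 up in the first. SLFN11, whose product stalls replication in damaged cells, rose by 3.98 in HCC4006ER, from 0.384 and 0.387 CPM to 6.35 and 6.75 CPM. Genes within 1 Mb of BRCA1 had medians of -0.46, 0.03 and 0.20 in the 3 lines, without the drop of BRCA1 in the gefitinib lines. NBR2 differed by -0.17, -0.11 and -0.18, at low levels of 3.92 to 6.29 CPM in these lines and their parents. Around TP53BP1 the median in HCC4006ER was -0.87. In HCC4006ER fibroblast, leukocyte and endothelial markers summed to 328 CPM against 130 CPM in its parent, with LUM highest. CD68 alone gave 129.8 of the 130.3 CPM in the parent. Of 4 markers measured in this pair, 3 were higher and 1 was lower in HCC4006ER. KRT19, a keratin of epithelial cells, fell from between 1896 and 1991 CPM to between 1.97 and 3.27 CPM, and MUC1 from between 318 and 395 CPM to between 26.5 and 32.1 CPM, so that edgeR called 2 of 2 tested lung and pancreas markers down. The part of these markers in the result was not tested.

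The cisplatin line IGROV-1/CDDP was the only line outside the HepG2 pairs with BRCA1 up past 1. BRCA1 went from 71.3 CPM (1461 reads) to 197 CPM (3727 reads), 1.47 higher with a counting interval from 1.38 to 1.55, and was the 1 of 9 genes past 1, beside 17.3% of 11734 genes. Of 54 other expressed genes within 1 Mb of BRCA1 on chromosome 17, 30 were up past 1, where 7.26% of all expressed genes were, and 0 down, with a median of 1.10. The median fell to 0.90 at 1 to 2 Mb, 0.75 at 2 to 3 Mb and 0.25 beyond 5 Mb. NBR2 was 0.35 higher. MAD2L2 was 0.88 higher and BRCA2 0.52 lower, and the cell cycle list had a median of 0.44.

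The lines made resistant to 5-fluorouracil shared the PancVB library. Neither passed 1 for any of the 9 genes, beside 20.5% of 11349 genes in PancB1Q and 20.3% of 11643 in PancB1V. BRCA2 came closest, with 68.9 CPM in PancVB, 134 in PancB1Q and 136 in PancB1V, or 0.96 and 0.98 higher, and passed 1 under TMM scaling in both. PARP1 was 0.41 and 0.66 higher. BRCA1 was at 229, 236 and 208 CPM, the 3 highest levels of the series, just above HCC827P.

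Levels of some of these genes went with those of the cell cycle list across the 17 lines, which share parents and libraries. Pearson's r with the mean of 18 cell cycle genes was 0.84 for PARP2, 0.82 for PARP1 and 0.77 for BRCA1, against 0.38 for BRCA2 and -0.18 for PALB2. Spearman's rho was 0.65, 0.73, 0.84, 0.10 and -0.20. UWB1.289, U10, U100 and IGROV-1 lay low for BRCA1 at their cell cycle level, a description by eye without a test. The first 3 had cell cycle means of 7.34, 7.33 and 7.12, near the 7.23 and 7.56 of the HCC4006P1 libraries and the 7.17 of HCC4006P2, in which BRCA1 was at 103, 102 and 155 CPM. IGROV-1 had a mean of 7.78 and BRCA1 at 71.3 CPM, whereas HCC827P at 7.80 and PancVB at 7.83 had 206 and 229 CPM.

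**Figure D5:**
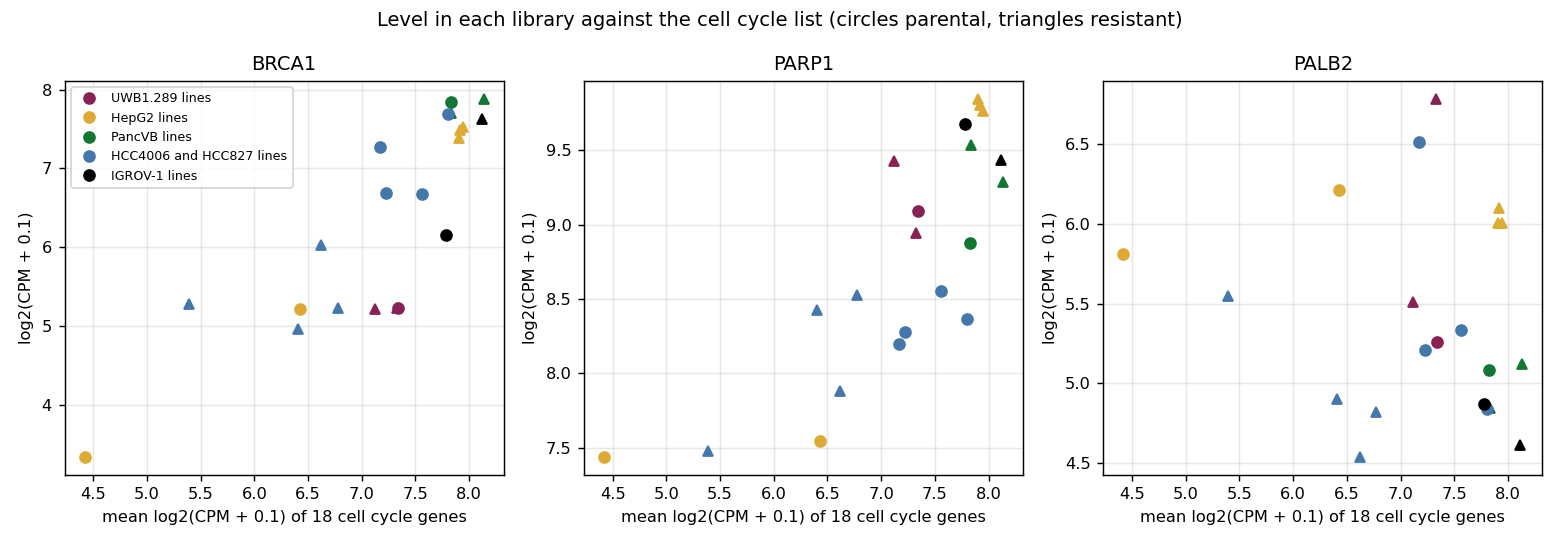
Level of BRCA1, PARP1 and PALB2 in 21 libraries (log2(CPM + 0.1), vertical) against the mean log2(CPM + 0.1) of 18 cell cycle genes (horizontal); circles are parental and triangles resistant libraries, coloured by parental line. BRCA1 in the UWB1.289 lines and in IGROV-1 lies below other libraries with like cell cycle levels, and PALB2 has no such trend (r = -0.18 over 17 lines).

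Of the 9 genes, BRCA2 and RIF1 were most alike over 17 lines (r = 0.81), and TP53BP1 and RIF1 least (r = -0.43). The genes most like PALB2 among 9030 were LCMT1 (r = 0.86) and POLR3E (r = 0.85), both on chromosome 16 within 2 Mb of PALB2. RFC3 (r = 0.90) and POLR1F (r = 0.90) were most like BRCA2, and RFC3 lies on chromosome 13 as BRCA2 does. BRCA1 was followed most closely by POLE2 (r = 0.91), a subunit of the leading-strand polymerase, and CHRNA5 (r = 0.89). PARP2 was most like PRIM1 (r = 0.90), a primase subunit, and KIAA0586 (r = 0.89), and PARP1 like ZNF184 (r = 0.94) and SKA1 (r = 0.92), a kinetochore gene. For TP53BP1 these were ALDH9A1 and VPS72 (both r = 0.89), for RIF1 SLC39A10 (r = 0.89) and ZNF670-ZNF695 (r = 0.88), for MAD2L2 GCAT (r = 0.88) and DCAKD (r = 0.87), and for PARG FAM171B (r = 0.89) and NID2 (r = 0.87). These values rest on 17 lines of 7 parents and are descriptions only.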

How the data were processed

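The authors deposited 1 file per library with raw counts of reads per Ensembl gene, made with TopHat, Bowtie, SAMtools and HTSeq on hg19 per the labels, in versions not given in the sources used here. The labels name a stranded KAPA messenger RNA kit for all 21 libraries, whereas the study's methods name it or an end-reading QuantSeq kit mapped with STAR, without saying which libraries used which. Libraries were not pooled. Between 19.3% and 31.9% of reads per library were listed as not unique and 2.41% to 3.29% as ambiguous, so that genes with near copies are undercounted. The 5 summary entries of each file were left out.

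Of 53515 genes, 45100 (84.3%) matched GENCODE annotation on GRCh37. Replicate 1 of HCC4006P1 had 0 counts on 1679 genes past position 30584047 of chromosome 7, in alphabetical chromosome order, that had 50 or more in replicate 2, which placed 18.1% of its counts there. These 8694 genes were left out of totals and tests, and 36406 remained. CPM were computed from that total, and differences from log2(CPM + 0.1). Counting intervals are built from 95% Wilson intervals of the shares, and 3 counts, or 0.100 to 0.388 CPM, were taken as the detection floor. Intervals cover counting error only, since reads carried no molecular identifiers.

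Replicated lines were compared with the quasi-likelihood test of edgeR 4.0.16 (TMM, filterByExpr, Benjamini-Hochberg adjusted p under 0.05 over all genes), HepG2S3 with HepG2, HCC4006ER with HCC4006P1, their interaction, and 7 parental with 7 resistant summed profiles. DESeq2 1.42.0 was an alternative, and others used all genes, TMM-scaled totals, no filter, a replicate block and each library left out. The fits were tested on simulated data. Nothing says that replicate libraries came from separate cultures, so p-values of the replicated pairs and their interaction measure the spread between libraries. Those of the summed profiles measure how the change varied over 7 parental lines. Chi-square values per degree of freedom between 5.49 and 95.0 showed that no pair of replicates agreed within sampling noise. Computation used Python 3.11.15 (pandas 2.3.3, numpy 2.4.6, matplotlib 3.10.9) and R 4.3.3.

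The 9 genes and the gene lists were chosen with earlier results of these data known. Named beside them were up to 3 genes per list that changed the same way in U10 and U100 with the largest mean change, up to 3 per list and edgeR comparison, the 2 protein-coding genes with the highest r, and genes that start within 1000 bases on the opposite strand. Some genes that this rule names are not reported here.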

Additional observations from a re-analysis of the deposited data

Results flagged for a closer look

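The change of 4 of 9 genes differed between HepG2S3 and HCC4006ER by the edgeR interaction term, each being higher in the sorafenib line. The differences were 4.32 for BRCA1, 2.61 for TP53BP1, 2.03 for PARP1 and 1.57 for PARP2 on the log2 scale. In that test 55.9% of 14479 genes were called, and 28.2% in this direction. BRCA1 was up past 1 in 3 pairs and down past 1 in 3, and its highest and lowest changes lay 4.94 apart. Of all expressed genes, 28.8% were up past 1 in HepG2S1, 29.1% in HepG2S3 and 7.26% in IGROV-1/CDDP. Down past 1 were 10.2% in HCC4006GR and 9.64% in HCC827GR, and 26.4% were past 1 in either direction in HCC4006ER. Of these pairs, HepG2S3 and HCC4006ER have 2 libraries a line and were compared by the test above, and differences among the others were not tested. Groups of 4 or more libraries, in which a single outlying library could be sought, did not occur.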

How the results depend on the processing

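Leaving out 1 library gave between 3 and 7 of 9 genes called in HepG2S3 (5790 to 10686 of all genes) and between 4 and 7 in HCC4006ER (4046 to 8370), and 0 over 7 parents whichever parent was left out. The count past 1 ranged from 3 to 5 in HepG2S1, 3 to 5 in HepG2S3 and 1 to 2 in HCC4006ER. With all genes, 3 of 9 and 3417 genes were called in HCC4006ER, and DESeq2 called 83 genes over 7 parents. By CPM, the count past 1 in HCC4006ER was 3 with the total over all genes and 3 with TMM scaling, and TMM scaling gave 1 in PancB1Q and 1 in PancB1V. Without a filter, 33.7% of genes were past 1 in U10 and 23.7% in U100. With 1 library left out, changes that turned direction ranged from -0.0080 to 2.00 for BRCA2 in HepG2S3, and in HCC4006ER from -0.20 to 0.14 for PARP1 (0.03 without HCC4006ER replicate 1) and from -0.56 to 0.052 for RIF1. With 1 parent left out they ranged from -0.10 to 0.32 for PARP1, -0.22 to 0.20 for TP53BP1 and -0.65 to 0.11 for BRCA1, which were -0.10, -0.22 and -0.65 without HepG2. BRCA1 was above 0 without HCC4006P1 (0.07), HCC4006P2 (0.11) or HCC827P (0.08), and with both HCC4006 stocks as 1 line (0.10). A line left with 1 library was assumed to vary like the other. The causes were not tested.

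The replicate block called 5 of 9 genes and 8297 genes in all in HepG2S3, and 6 of 9 and 7787 in HCC4006ER, and changed no call of the 9 genes. Same-numbered libraries deviated together with a correlation of 0.06 over 8319 genes in the HepG2 pair and 0.54 over 8769 in the HCC4006 pair. Replicates 1 and 2 stand for libraries lettered A and B in the labels. The titles give both HepG2 libraries the number 1 and both HepG2S3 libraries the number 2, so that the block on the HepG2 pair rests on the letters alone, and nothing says that they pair libraries. The gaps between the highest and lowest lines without 1 library were added after seeing the data. Depth limits U10 and U100 to the counting intervals given, and their single libraries leave the spread between cultures unknown.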
